A study of Rattus norvegicus with 5 samples.

Results

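The 10 genes described here are the classical transcription factors of the epithelial-mesenchymal transition (EMT), Snai1, Snai2, Twist1, Twist2, Zeb1 and Zeb2, and 4 genes of adhesion and the cytoskeleton read out beside them, Cdh1, Cdh2, Vim and Tjp1. Members were found by matching the RefSeq accession of each array probe to a gene, and the probe with the brightest mean stood for its gene. Of the 10 genes, 9 were matched to a probe among 15442 named genes on the array, and 8 could be tested among 18913 features. Zeb1 was matched to no probe and was not analysed here. Cdh1 had a probe that stayed near the background.

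The tissues were 3 lung nodules and 1 irradiated primary tumour, both collected 6 weeks after γ-irradiation, and 1 primary tumour without irradiation, collected 6 weeks after the cells were grafted. All came from C6-L cells, a rat glioma line, carried as a xenograft in BALB/c nu/nu nude mice of 6 weeks, a host that lacks a normal T cell compartment but keeps its own stroma, blood vessels and myeloid cells. All tumours thus derive from 1 rat line, the probes are rat sequences, and mouse host RNA could be read only where it cross-hybridised. Total RNA of each tissue was labelled with Cy3 and hybridised to 1 Agilent array. Each primary is 1 array, so the error of every test comes from the 3 nodules and is assumed to hold for the primaries. Nothing in the labels ties the nodules to different animals, and the p-values therefore cover only the spread seen between these 3 samples, which few arrays estimate loosely. Between 69.8 and 73.5% of the gene spots of an array stood well above background, with 0 saturated. The 5 arrays shared 1 slide, with the nodules in a separate row of it, and the row cannot be told apart from the group.

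In EMT, epithelial cells give up E-cadherin junctions and cell polarity and take on the shape and motility of mesenchymal cells. The zinc finger proteins Snai1, Snai2, Zeb1 and Zeb2 bind E-box DNA and repress the E-cadherin gene Cdh1, and the basic helix-loop-helix proteins Twist1 and Twist2 act in the same programme. A fall of E-cadherin with a gain of N-cadherin (Cdh2) is known as the cadherin switch, and vimentin (Vim) is the intermediate filament of mesenchymal cells. Glial cells and gliomas are not epithelial: they normally make vimentin and N-cadherin and little E-cadherin, and the same factors are studied in glioma for invasion rather than for a complete switch.

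E-boxes are the sequences through which these factors act, so the 250 bases before the start site are shown for Snai1 and Vim, the 2 measured genes whose 3 nodules all lay above both primaries. The sequences are from RefSeq (build GRCr8), 5′ to 3′ on the strand of the gene, with the E-box CACCTG (or CAGGTG on the other strand) in capitals.
Snai1, chr3:176667226-176667475 (+ strand): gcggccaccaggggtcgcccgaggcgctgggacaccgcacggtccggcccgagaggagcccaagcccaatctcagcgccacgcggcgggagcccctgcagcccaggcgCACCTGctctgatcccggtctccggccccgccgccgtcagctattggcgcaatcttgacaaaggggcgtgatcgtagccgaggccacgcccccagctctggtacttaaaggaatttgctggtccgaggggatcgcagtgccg
Vim, chr17:81577011-81577260 (+ strand): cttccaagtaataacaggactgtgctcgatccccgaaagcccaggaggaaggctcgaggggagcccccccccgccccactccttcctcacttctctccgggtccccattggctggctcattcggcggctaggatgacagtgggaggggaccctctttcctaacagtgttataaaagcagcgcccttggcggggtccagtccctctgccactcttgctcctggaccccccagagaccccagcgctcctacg
The Snai1 window held 1 such E-box, whose first base is at -142 from the start site, and the Vim window held 0. RefSeq promoters were at hand for 7 of the 10 genes, and 2 of these 7 windows held the motif, those of Snai1 and Zeb1. Over all 33469 promoter windows of 250 bases, 15.9% held it. A match describes the letters of the window and says nothing about binding.

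The levels below are log2 signals scaled so that 0 is the 75th percentile of the array, and they can be compared between arrays for 1 gene but not between genes. Of the factors, Snai1, the founding member of the Snail family, had levels of -2.43, -2.68 and -2.87 in nodules 1, 2 and 3, against -3.01 in the irradiated and -3.58 in the non-irradiated primary. All 3 nodules lay above both primaries, by a narrow margin above the irradiated one. Each array carried a single spot for Snai1, so no technical spread was available. Snai2 (Slug), which shares the zinc fingers of Snai1, had levels of -2.48, -2.12 and -2.09 in the nodules, -1.79 in the irradiated and -3.11 in the non-irradiated primary. It was highest in the irradiated primary and lowest in the non-irradiated primary, with the nodules in between.

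Twist1, a mesoderm regulator, stood at 1.26, 1.78 and 1.80 in nodules 1, 2 and 3, against 1.88 in the irradiated and 1.32 in the non-irradiated primary. Nodule 1 was the lowest of the 5 arrays and the other nodules lay close to the irradiated primary, so the nodules overlapped the non-irradiated primary. Twist2 (Dermo1) had levels of -3.71, -3.30 and -3.26 in the nodules, -3.31 in the irradiated and -3.53 in the non-irradiated primary, and its nodules spanned both primaries. Zeb2, which also directs neural crest and glial development, stood at 2.41, 2.54 and 2.20 in the nodules, 2.21 in the irradiated and 1.71 in the non-irradiated primary. Its nodules lay around the irradiated primary and above the other one.

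Among the genes of adhesion and the cytoskeleton, Vim had levels of 5.48, 6.13 and 6.23 in nodules 1, 2 and 3, against 5.45 in the irradiated and 5.04 in the non-irradiated primary. Nodule 1 was level with the irradiated primary and the other nodules lay above it. Vim was bright on every array, with spot signals of 40397.3 in the non-irradiated primary at the lowest and 132684.3 in nodule 3 at the highest. Cdh2 (N-cadherin) stood at -1.55, -1.84 and -1.73 in the nodules, -1.03 in the irradiated and -0.25 in the non-irradiated primary. All 3 nodules lay below both primaries, without overlap. Tjp1, the scaffold ZO-1 of tight junctions, stood at 1.00, 0.90 and 0.99 in the nodules, 1.38 in the irradiated and 0.31 in the non-irradiated primary. Its nodules differed by only 0.10 and lay between the primaries.

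Cdh1 (E-cadherin) had levels of -8.46, -7.84 and -8.73 in the nodules, -5.64 in the irradiated and -8.14 in the non-irradiated primary. In the irradiated primary 1 of 2 spots was well above background, with signals of 26.4 and 31.6, and in the other 4 tissues 0 of 2 spots were, with signals from 3.3 to 10.3. By the rule used here, which asks for most spots of a probe, Cdh1 was well above background on no array and no fold is given.

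**Figure D1:**
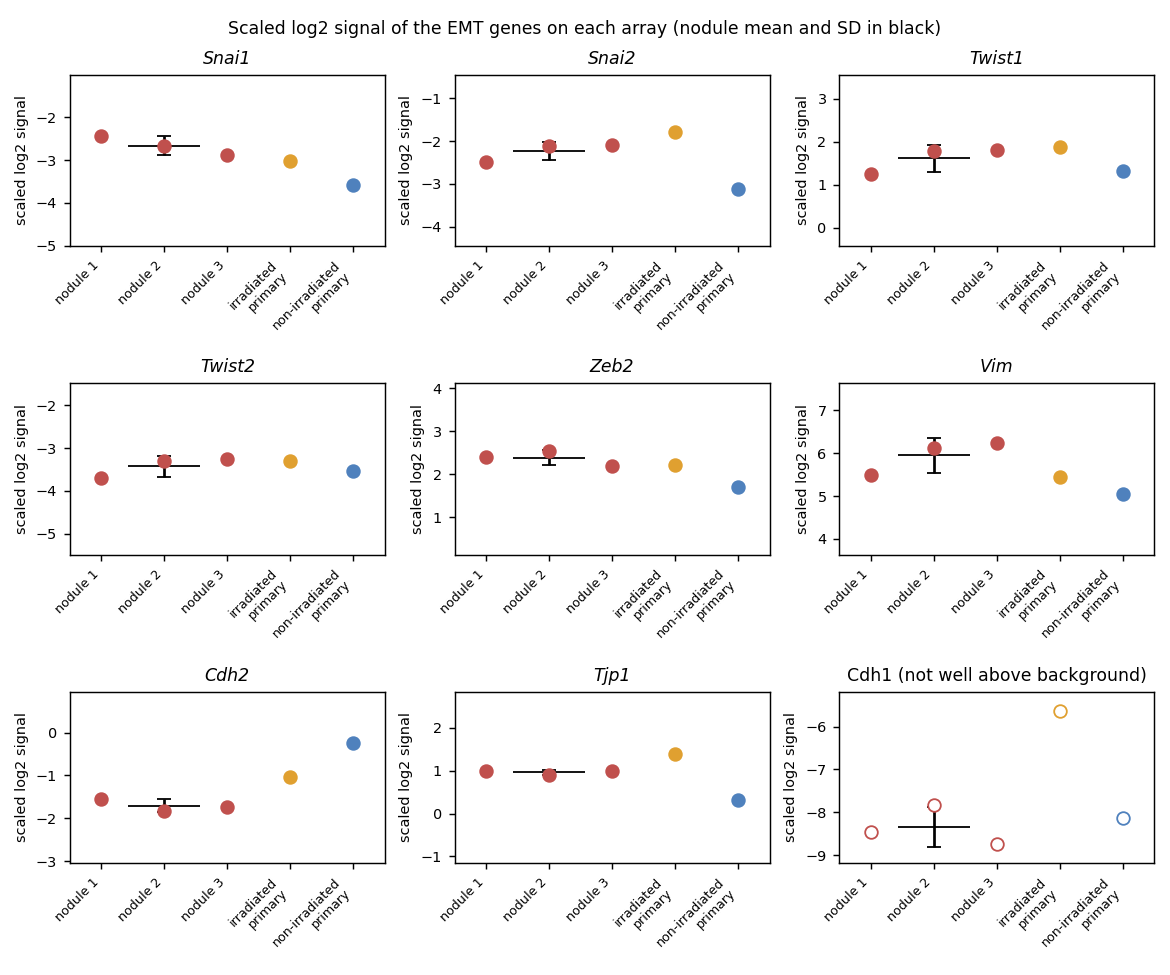
Scaled log2 signal of each measured EMT gene (y axis, 4 log2 units in each panel) on the 3 nodule arrays, the irradiated primary and the non-irradiated primary (x axis); the black line and bar are the mean and SD of the nodules. The non-irradiated primary is the lowest point for Snai1, Snai2, Zeb2, Vim and Tjp1 and the highest for Cdh2, and open points mark Cdh1, which was not well above background.

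The nodules varied among themselves by SDs of 0.05 (Tjp1) to 0.41 (Vim), against a median SD of 0.16 over all features tested. For 4 of the 8 tested genes (Snai2, Twist1, Twist2 and Vim) nodule 1 was the lowest nodule. No pair of nodules differed by 1 or more for any of the 8 genes. The largest difference between a pair was 0.75, for Vim in nodules 1 and 3. Over all features, 2.26 to 7.04% differed by at least 1 between a pair of nodules.

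The study's design first asks how the nodules differ from the irradiated primary. Against that tumour, 0 of the 8 tested genes passed limma after Benjamini-Hochberg adjustment over all features, where 3.72% of all 18913 features did. Cdh2 and Tjp1, 2 of the 8 genes, had an unadjusted p under 0.05, as had 4153 of the 18913 features. The nodules averaged -1.70 ± 0.15 for Cdh2 (SD, n = 3), a log2 difference of -0.68 to the irradiated primary (95% interval -1.15 to -0.20, limma adjusted p = 0.132). Tjp1 averaged 0.97 ± 0.05 in the nodules and differed by -0.41 (interval -0.73 to -0.09, adjusted p = 0.153). Vim averaged 5.94 ± 0.41 in the nodules, with a difference of 0.49 (interval -0.35 to 1.34, adjusted p = 0.445). A miss does not show that levels were alike: the intervals of Cdh2 and Tjp1, which are not adjusted for the number of features, lay below 0, and that of Vim reached from a fall to a rise.

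The factors pointed in different directions against the irradiated primary, with 0 of 5 past the test. Snai1 differed by 0.35 (interval -0.29 to 1.00, limma adjusted p = 0.473) and Zeb2 by 0.17 (interval -0.27 to 0.61, adjusted p = 0.613). Snai2 differed by -0.44 (interval -1.05 to 0.17, adjusted p = 0.351), Twist1 by -0.27 (adjusted p = 0.598) and Twist2 by -0.12 (adjusted p = 0.843). The median over the 5 factors was -0.12 and that over all 8 genes -0.19, beside 0.03 over all features. For 6 of the 8 genes all 3 nodules lay on 1 side of the irradiated primary, and 68.1% of all features did so. Without nodule 1, Vim (log2 difference 0.73, limma adjusted p = 0.0283) and Cdh2 (-0.75, adjusted p = 0.026) passed. In that fit limma called 3231 of 19075 features, in place of 704 of 18913.

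Set against the non-irradiated primary, the nodules had less Cdh2 and more Tjp1. By limma, Cdh2 fell by 1.46 log2 units (SE 0.18, adjusted p = 0.0157), to 0.364 of its level in the non-irradiated primary, and was lower in 3 of 3 nodules. Tjp1 rose by 0.65 (SE 0.12, adjusted p = 0.0314) or 1.57-fold, and was higher in 3 of 3 nodules. These were 2 of the 8 tested genes, where 18.6% of all features passed, 9.72% with a rise and 8.85% with a fall. Cdh2 kept its call in 8 of 8 other ways of scaling, filtering or fitting the values (adjusted p from 0.00983 to 0.0276), and lost it without nodule 2 (adjusted p = 0.0753) or nodule 3 (adjusted p = 0.0627). Without nodule 2, limma called 0 of 18993 features in this comparison. An unadjusted p under 0.05 was reached by 5006 of the 18993, and 3 of the 8 EMT genes were among these 5006.

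The call of Tjp1 was less firm. The array carried a second, dimmer Tjp1 probe, which read -3.54, -3.55 and -3.60 in the nodules, -3.10 in the irradiated and -3.64 in the non-irradiated primary. It placed the nodules only 0.07 above the non-irradiated primary, and the mean of both probes gave 0.36 (adjusted p = 0.146). Scaling to the array median (adjusted p = 0.0622), a fit without an intensity trend (adjusted p = 0.0615) and leaving out nodule 2 (adjusted p = 0.109) or nodule 3 (adjusted p = 0.101) also ended the call. Both probes placed the irradiated primary highest of the 5 arrays.

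The remaining 6 genes did not pass, and all 6 averaged above the non-irradiated primary, as 52.5% of all features did. Zeb2 differed by 0.67 (SE 0.17, interval 0.23 to 1.11, limma adjusted p = 0.0572), Snai2 by 0.88 (SE 0.23, interval 0.27 to 1.49, adjusted p = 0.063) and Snai1 by 0.92 (SE 0.25, interval 0.27 to 1.57, adjusted p = 0.0661). For these 3 factors every nodule lay above the non-irradiated primary. Snai1 passed with scaling to the array median (adjusted p = 0.0497), quantile normalization (0.0482) and the deposited values (0.0435), while a normexp background correction gave 0.49 (adjusted p = 0.146). Vim differed by 0.91 (SE 0.32, interval 0.06 to 1.75, adjusted p = 0.119). Twist1 differed by 0.29 (adjusted p = 0.457) and Twist2 by 0.11 (adjusted p = 0.803), both with a nodule below the primary.

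The 5 factors had a median of 0.67 against the non-irradiated primary, with a range of 0.11 to 0.92, and the 8 genes a median of 0.66, beside 0.04 over all features. For 6 of the 8 genes all 3 nodules lay on 1 side, where 76.9% of all features did. Without nodule 1, 7 of the 8 genes passed, all but Twist2, with limma adjusted p-values from 0.00145 (Cdh2) to 0.0355 (Snai1). In that fit limma called 6474 of 19075 features, in place of 3512 of 18913. Both comparisons use the same 3 nodules, so their values are given side by side and were not set against each other.

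**Figure D2:**
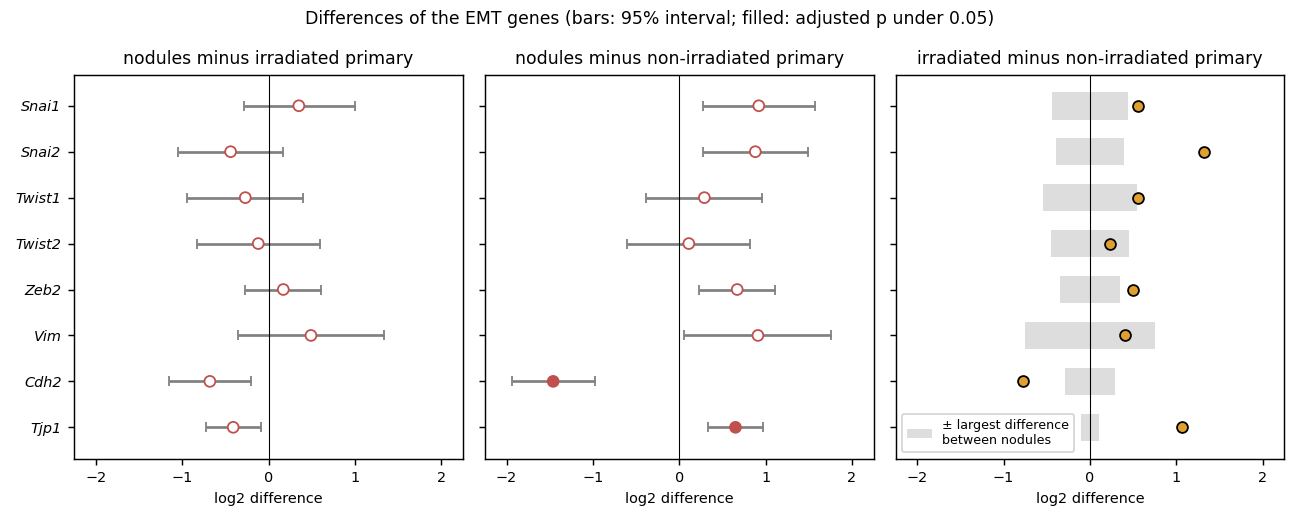
Log2 difference (x axis) of 8 EMT genes (y axis) for nodules minus the irradiated primary, nodules minus the non-irradiated primary, and the irradiated minus the non-irradiated primary. Bars in the first and second panels are 95% intervals of limma and filled points have an adjusted p under 0.05, which only Cdh2 (-1.46) and Tjp1 (0.65) reach against the non-irradiated primary; grey bands in the last panel span the largest difference between nodules in both directions.

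**Figure D3:**
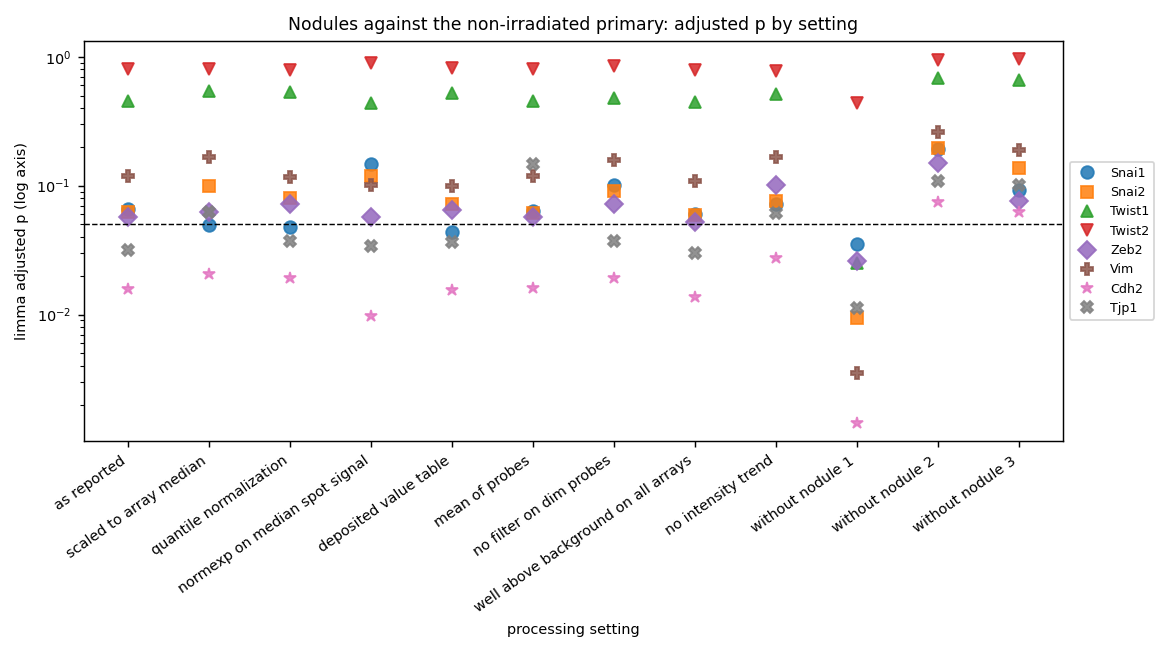
Limma adjusted p (y axis, log scale) of each EMT gene for nodules against the non-irradiated primary, under each processing setting (x axis), with the threshold of 0.05 dashed. Cdh2 lies under the line except without nodule 2 or nodule 3, and without nodule 1 all genes but Twist2 lie under it.

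The effect of irradiation on the primary tumour was asked with 1 array a group, so differences between the primaries have no replicate check and no test. The labels date the irradiated primary from irradiation and the other from grafting. Any difference in time since grafting cannot be told apart from irradiation. Snai2 was higher in the irradiated primary by 1.32 on the log2 scale (2.50-fold) and Tjp1 by 1.06 (2.09-fold). These were 2 of the 8 genes past a difference of 1, both upward, where 16.4% of 18442 features passed in either direction and 9.30% upward. Snai1 and Twist1 were higher by 0.56 each, Zeb2 by 0.50, Vim by 0.41 and Twist2 by 0.23. Cdh2 was lower by a log2 difference of -0.78. For 6 of the 8 genes, all but Twist2 and Vim, the difference exceeded the largest difference between nodules, as it did for 55.5% of all features. Normexp correction gave 0.91 for Snai2 and 0.25 for Snai1, scaling to the array median gave 0.99 for Tjp1, and the mean of its probes gave 0.80.

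All 5 factors thus read higher in the irradiated than in the non-irradiated primary, with a median of 0.56, beside 0.02 over all features, of which 51.5% read higher. Taking the 5 arrays together, the non-irradiated primary was the lowest for 5 of the 8 genes (Snai1, Snai2, Zeb2, Vim and Tjp1) and the highest for 1 (Cdh2). Over all features it was the lowest for 32.5% and the highest for 28.6%.

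Genes that work with these factors were read from 9 related lists. Of their 131 genes, 85 could be tested; 0 were called higher and 4 lower than the irradiated primary, where 3.72% of all features were called, and 8 were called higher and 9 lower than the non-irradiated primary, where 18.6% were. These shares are near those of all features, so the list counts below describe the genes and show nothing particular to a list. Pkp3 is among the 4 lower and among the 8 higher calls, though it passed the filter on low values only through the irradiated primary. Its calls are counted but not used as results. Among 9 other EMT transcription factors tested, 2 fell against the non-irradiated primary (list median 0.03) and 0 passed against the irradiated one (median -0.03). Foxc1, a forkhead factor, read -0.83, -0.39 and -0.50 in the nodules, -0.52 in the irradiated and 0.54 in the non-irradiated primary, and fell by 1.11 against the non-irradiated primary (limma adjusted p = 0.0336; lost in 2 of 8 other settings). Sox4, a factor of progenitor cells, fell by 1.10 (adjusted p = 0.0315; lost in 1 other setting). Both thus moved against the direction in which Snai1, Snai2 and Zeb2 read. Fosl1, an AP-1 subunit, differed by 0.56 between the primaries, the largest positive difference of the list.

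Among 13 cofactors and regulators of the factors, 2 rose against the non-irradiated primary (list median 0.36) and 0 passed against the irradiated one (median 0.01). Loxl2, a lysyl oxidase reported to stabilise Snail, read 1.43, 1.25 and 1.20 in the nodules, 1.78 in the irradiated and 0.19 in the non-irradiated primary, and rose by 1.10 (limma adjusted p = 0.0166). The histone deacetylase Hdac1, a corepressor of Snail, rose by 0.49 (adjusted p = 0.0455), a call lost in 6 of 8 other settings. Loxl2 was also the gene of this list that differed most between the primaries, by 1.59, and the corepressor Ctbp1 was lowest, by -0.49.

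Of 5 epithelial regulators tested, Ovol1, a repressor of EMT, fell against the irradiated primary by 2.45 (limma adjusted p = 0.041; lost in 2 of 8 other settings). Normexp correction gave -1.49, so the size depends on the background correction. Against the non-irradiated primary Ovol1 differed by -1.40 (limma adjusted p = 0.0552). It read -4.33, -4.90 and -5.00 in the nodules, -2.30 in the irradiated and -3.34 in the non-irradiated primary, so the primaries differed by 1.05, and the median over the list was 0.34 against the irradiated and -0.15 against the non-irradiated primary. Grhl2 differed by -0.71 between the primaries. Of 9 catenins and adherens junction partners, 1 fell against the non-irradiated primary: afadin (Afdn), which links nectins to actin, by 1.13 (adjusted p = 0.0445; lost in 4 other settings; list median 0.19), and 0 passed against the irradiated one (median -0.06). Nectin3 differed by 0.85 between the primaries and Afdn by -0.51.

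Of 10 tight junction and polarity genes, 1 rose and 1 fell against the non-irradiated primary (median 0.26) and 0 passed against the irradiated one (median -0.41). The adhesion molecule Jam3 rose by 1.30 (limma adjusted p = 0.0208), with levels of -0.24, -0.36 and 0.03 in the nodules, 0.37 in the irradiated and -1.49 in the non-irradiated primary. Tjp3 (ZO-3) fell by 0.86 (adjusted p = 0.0487; lost in 5 other settings), opposite to its relative Tjp1, and Tjp3 read lower in the irradiated than in the non-irradiated primary by a log2 difference of -0.37. Cldn4 read -4.56, -5.71 and -7.76 in the nodules, -5.26 in the irradiated and -7.56 in the non-irradiated primary. It passed the filter on low values only through the irradiated primary, so its higher level there is described and not used as a result. The irradiated primary read at least 1.82-fold higher than the non-irradiated one. In such a bound the dim array was raised to its lowest level well above background.

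Desmosome and keratin genes were tested for 11 members, of which 1 was called lower than the irradiated primary (median 0.13) and 2 were called higher than the non-irradiated one (median 1.28). Of these, Pkp3 was called in both comparisons and is described without its tests, since it passed the filter on low values only through the irradiated primary. The desmosomal plakophilin Pkp3 read -6.34, -5.61 and -6.43 in the nodules, -2.60 in the irradiated and -8.26 in the non-irradiated primary. It was not well above background in nodule 1 or in the non-irradiated primary, and read at least 11.5-fold higher in the irradiated than in the non-irradiated primary. The log2 difference of the nodules to the irradiated primary was -3.53, and -1.78 with normexp correction, so its size depends on the background correction. Against the non-irradiated primary the difference was 2.13, and 0.05 with normexp correction. Periplakin (Ppl) rose by 0.69 against the non-irradiated primary (limma adjusted p = 0.0356; lost in 2 other settings). Epcam, an epithelial adhesion molecule, was well above background on all 5 arrays and differed by -0.78 between the primaries.

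Of 7 other intermediate filament genes tested, 1 fell against the irradiated primary (median -0.25), and 1 rose and 2 fell against the non-irradiated one (median -0.14). Nestin (Nes), the filament of neural progenitors, read 1.72, 1.33 and 0.46 in the nodules, 3.02 in the irradiated and 3.60 in the non-irradiated primary, and fell by 2.43 against the non-irradiated primary (limma adjusted p = 0.0364; lost in 1 other setting). Peripherin (Prph), a neuronal filament, read 4.41, 4.77 and 4.85 in the nodules, 3.74 in the irradiated and 3.18 in the non-irradiated primary, and rose by 1.49 (adjusted p = 0.0179). Desmin (Des), the muscle filament, read -2.99, -2.67 and -2.34 in the nodules, 1.73 in the irradiated and -0.25 in the non-irradiated primary. It fell by 4.40 against the irradiated primary (adjusted p = 0.0091) and by 2.41 against the non-irradiated primary (adjusted p = 0.0145). Skeletal muscle markers moved with desmin: their summed level (12 of 13 with a probe) was 2.33 to 2.54 in the nodules, 7.31 in the irradiated and 5.18 in the non-irradiated primary, and their part in the result was not tested. Synm differed by -0.70 between the primaries.

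Of 15 mesenchymal markers tested, 1 fell against the irradiated primary (median 0.03), and 2 rose and 3 fell against the non-irradiated one (median 0.26). The gelatinase Mmp2 read 5.01, 3.93 and 4.11 in the nodules, 3.04 in the irradiated and 1.80 in the non-irradiated primary, and rose by 2.55 against the non-irradiated primary (limma adjusted p = 0.0274). The collagen chain Col1a2 rose by 1.87 (adjusted p = 0.0146), while the fibronectin receptor chain Itga5 fell by 1.17 (adjusted p = 0.0307; lost in 1 other setting) and the neural adhesion molecule Ncam1 fell by 0.79 (adjusted p = 0.0183). The remaining one that fell was the integrin chain Itgb1, named here after its values were seen. The membrane-bound protease Mmp14 differed by -0.82 between the primaries. Fibroblast markers, which include the collagen gene Col3a1, had summed levels of 5.63 to 5.85 in the nodules, 5.21 in the irradiated and 5.13 in the non-irradiated primary (10 of 11 with a probe), and their part was not tested. Bright genes, Col3a1 and Gsn, carry this sum. The list medians were 0.74 against the irradiated and 0.36 against the non-irradiated primary. Not all genes rose: against the irradiated primary Col3a1 differed by 0.84 and Fbln1 by -1.06. Of the 8 fibroblast markers tested, limma called 2 higher than the irradiated primary, Col3a1 among them, and 0 lower. Over all features 3.72% were called there.

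Of 20 calls from these lists (at most 4 for each list and comparison, those of Pkp3 included), 0 were lost without nodule 1, and all 20 were lost without nodule 2 (adjusted p from 0.0631 to 0.17). Without nodule 3, 18 of the 20 were lost (adjusted p up to 0.107), and both calls of Des held. Of 13 other cadherins on the list 6 could be tested, and 0 passed in either comparison (5 of them well above background on all 5 arrays). Their medians were 0.23 against the irradiated and 0.37 against the non-irradiated primary. P-cadherin (Cdh3) read 1.32, 0.66 and 0.82 in the nodules, 0.85 in the irradiated and -0.21 in the non-irradiated primary, a difference of 1.15 to the non-irradiated primary (limma adjusted p = 0.0543), and differed by 1.06 between the primaries. M-cadherin (Cdh15), known from muscle satellite cells, read -3.86, -4.86 and -6.02 in the nodules, -6.14 in the irradiated and -5.31 in the non-irradiated primary. It was not well above background in the irradiated primary, where the lowest level well above background was -6.03. In nodule 3 it was well above background, and the lowest such level on that array was -6.77.

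**Figure D4:**
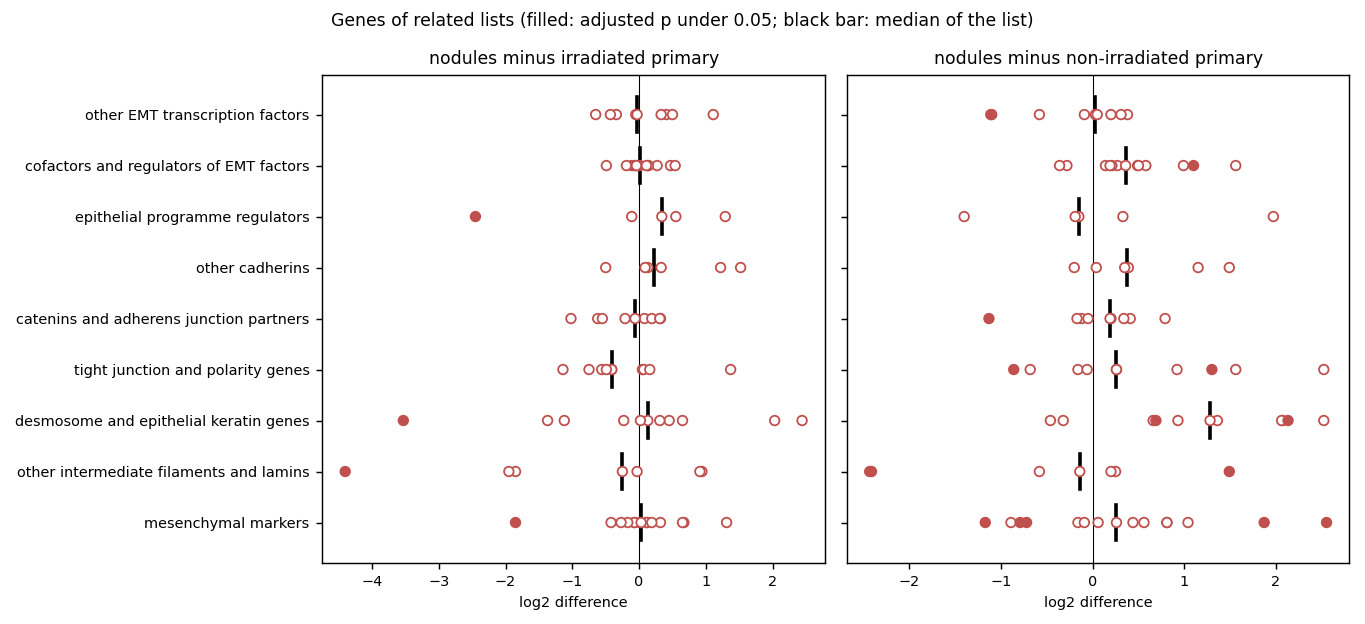
Log2 difference (x axis) of each tested gene of 9 related lists (y axis) for nodules minus the irradiated primary and nodules minus the non-irradiated primary. Filled points have a limma adjusted p under 0.05 and black bars are list medians. Filled points lie on both sides of 0 against the non-irradiated primary and only below 0 against the irradiated one. They include Pkp3 in both panels, which passed the filter on low values only through the irradiated primary.

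Markers of other cells were read beside these genes as sums of linear signals, given on the log2 scale. The brightest genes thus carry each sum. In bulk tissue, fewer cells of a type and less RNA per cell cannot be told apart. Alveolar markers (12 of 13 with a probe) had summed levels of 5.78, 3.63 and -0.88 in nodules 1, 2 and 3, -0.51 in the irradiated and 0.87 in the non-irradiated primary, and airway markers (9 of 10) had 4.50, 3.79 and 1.72 in the nodules, 1.02 in the irradiated and -0.89 in the non-irradiated primary. In nodule 3 and the irradiated primary the airway sum came mostly from 1 gene, Tppp3, which read 1.61 and 0.85 there. The airway marker Scgb1a1 read 4.11, 3.09 and -5.27 in the nodules, -5.41 in the irradiated and -5.27 in the non-irradiated primary. Cardiac markers (11 of 11) summed to 2.89, 2.75 and 5.79 in the nodules, 3.38 in the irradiated and 3.10 in the non-irradiated primary. The part of these tissues in the levels of Cdh1 and Cdh2 was not tested.

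Macrophage markers (11 of 11), from cells that make vimentin, summed to 5.91, 5.82 and 5.66 in nodules 1, 2 and 3, 5.92 in the irradiated and 4.84 in the non-irradiated primary. Bright genes, C1qa and C1qb, carry this sum. The genes ran in different directions against the non-irradiated primary, from 2.38 (Aif1) to -1.12 (Cd68), with a median of 0.91 over 10 tested. Endothelial markers (9 of 11) summed to 0.54 to 2.12 in the nodules, 0.41 in the irradiated and 0.64 in the non-irradiated primary. Pericyte and smooth muscle markers (11 of 11, Des among them) summed to 4.21 to 4.85 in the nodules, 4.17 in the irradiated and 4.58 in the non-irradiated primary. Mesothelial markers (4 of 6) were at 4.60 to 4.92 in the nodules, 5.60 in the irradiated and 5.07 in the non-irradiated primary. Skin markers (5 of 9) were at -2.97 to -2.48 in the nodules, -3.65 in the irradiated and -3.48 in the non-irradiated primary. Their part in the EMT gene levels was not tested. Glial and glioma markers (14 of 15, Nes among them) summed to 5.36, 5.19 and 5.03 in the nodules, 5.27 in the irradiated and 5.80 in the non-irradiated primary, with 11 to 12 of the 14 well above background on each array. The astrocyte filament Gfap and the factor Olig2 were well above background on none of them. Genes of this list ran in different directions, with a median of -0.30 against the non-irradiated primary over 12 tested. Sox10 read -4.09, -1.47 and -2.82 in the nodules, -0.23 in the irradiated and 2.10 in the non-irradiated primary. Cspg4, a bright gene, read 4.44, 3.86 and 3.90 in the nodules, 3.10 in the irradiated and 3.59 in the non-irradiated primary.

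Each of the 5 members that spanned at least 1 log2 unit over the arrays was set beside the named genes with the most similar profile, taken as the smallest root mean square difference between profiles centred on their mean over the 5 arrays, among 10032 genes. Snai1 was nearest to Cfap119 (0.042) and Ehd3 (0.048), Snai2 to Epha2 (0.041) and Mov10 (0.064), and Vim to Rnf216 (0.040) and S100a3 (0.058). Cdh2 was nearest to Ankrd50 and Fgd6 (0.070 each) and Tjp1 to Tmem175 (0.033) and Mitd1 (0.045). Epha2, for example, read 2.16, 2.50 and 2.53 in the nodules, 2.79 in the irradiated and 1.60 in the non-irradiated primary, the same order of arrays as Snai2. With 5 arrays, close profiles are easily found among so many genes, and nothing about shared control is read from them.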

How the data were processed

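Total RNA from 5 tissues (3 lung nodules, 1 irradiated primary, 1 non-irradiated primary) was hybridised to 5 single-colour Agilent arrays on 1 slide. The deposited intensity values were background-subtracted and detrended within each array by Agilent Feature Extraction 11.0, per the file headers and the submitters' processing notes; no step acted between arrays. Flags of 0 or 1 deposited for each spot mark outliers, saturation and signal well above background, per the file headers. A deposited table of log2 values covers 18502 probes, its processing is not given in the sources used here, and it served as an alternative. Its column for nodule 1 had a median of 9.74. All its columns correlated at 0.9996 or more with the log2 signal of their array, so its values run in the same direction.

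Outlier spots (0.603 to 0.865% of gene spots) were left out, log2 signals were averaged over a probe's spots, and the 75th percentile of the array over non-control probes was subtracted. Gene names came through RefSeq accessions (GRCr8 gene table), for 60.4% of 30363 probes. A probe was tested where, in some group, every array had most of its spots well above background, which left 18913 features. The nodule mean was set against either primary in limma 3.58.1 under R 4.3.3 (a mean for each group, intensity trend, 2 residual degrees of freedom, Benjamini-Hochberg adjusted p under 0.05). The fit was tested on simulated data. The primaries were compared without a test, by log2 differences of at least 1.

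The members, gene lists and alternatives were chosen with earlier results of these data known. Besides the members, the text names called genes of each related list, at most 4 for each list and comparison, the largest difference each way between the primaries, and the 2 most similar profiles of a member. One gene that this rule names is not reported here. The planned normexp correction used median spot signals, since the files give no mean signal.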

Additional observations from a re-analysis of the deposited data

How the results depend on the processing

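No paired analysis was possible because each primary is 1 array and shares no replicate numbers with the nodules. Against the irradiated primary, 0 EMT genes passed in the reported fit and in 8 other settings, and 0 to 2 when 1 nodule was left out, with 2 without nodule 1. Against the non-irradiated primary 2 passed, 3 with quantile normalization or the deposited values, 2 with scaling to the array median (Cdh2 and Snai1), 1 with the mean of probes or with no intensity trend, and 0 to 7 when 1 nodule was left out. Between the primaries 2 genes differed by at least 1, and 1 did with scaling to the array median, with normexp correction or with the mean of probes. For the 8 EMT genes against both primaries, 157 single-gene results kept their direction and side of the threshold, 10 came to pass, 7 no longer passed, and 2 reversed: Twist2 ranged from -0.20 to 0.03 against the irradiated primary when 1 nodule was left out, above 0 without nodule 1, and was -0.04 against the non-irradiated primary with normexp correction. Over all features limma called 704 against the irradiated primary, 438 with scaling to the array median, 399 with no intensity trend, and 14 to 3231 when 1 nodule was left out. Against the non-irradiated primary it called 3512, and 0 to 6474 when 1 nodule was left out. The fits without a nodule tested 18993 to 19150 features. The cause of these shifts was not tested. Cdh1 lay at the background on most arrays, and Snai1 had 1 spot an array, which limits both.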

Other observations

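Some epithelial genes of the lists differed widely between the nodules themselves. They were chosen here after their values were seen. Keratin 18 (Krt18) read -0.90, -1.98 and -4.02 in nodules 1, 2 and 3, against -4.33 in the irradiated and -4.37 in the non-irradiated primary, and the epithelial factor Elf3 read -1.99, -2.56 and -4.08 in the nodules, against -4.16 in the irradiated and -4.84 in the non-irradiated primary. Summed airway and alveolar markers, given above, also fell from nodule 1 over nodule 2 to nodule 3. The airway sum had the same order of all 5 arrays as Krt18 and Elf3, and the alveolar sum placed the primaries differently. In nodule 3 and the primaries the airway order rested mostly on Tppp3 (1.61, then 0.85 irradiated and -2.49 non-irradiated). Cyp2f4 shared this order but was not well above background in the primaries. Foxj1 ran the other way (-3.72, -3.46 and -2.28), and Krt18 differed by only 0.04 between the primaries. The part of these tissues was not tested. Keratin 8 (Krt8), the usual partner of Krt18 in simple epithelia, ran the other way among the nodules, with -1.32, 0.53 and 1.04, against 0.31 in the irradiated and -1.98 in the non-irradiated primary. Envoplakin (Evpl) read -4.13 in nodule 1 and 0.13 and 0.10 in nodules 2 and 3, against -3.74 in the irradiated and -3.82 in the non-irradiated primary. None of these 4 genes passed limma against either primary (adjusted p from 0.164 to 0.914).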
